A study of Mus musculus with 32 samples.

Results

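The activin, Nodal and bone morphogenetic protein (BMP) pathway is represented here by 10 genes. They are the ligand gene Nodal, the genes Lefty1 and Lefty2 for its secreted antagonists, the receptor genes Acvr2a, Acvr2b, Acvr1b, Bmpr1a and Bmpr2, the inhibitor gene Smad7 and the BMP target Id1. They were chosen by name, and a peak of N6-methyladenosine (m6A) was given to a gene when its summit, the base of highest signal, lay in the gene body. All 10 were found among the 49997 genes of the RefSeq table for GRCm38.p6, the assembly that mm10 stands for. Together they held 416 of the 496760 genomic peaks in 16 peak lists.

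m6A was mapped in mouse embryonic stem cells by immunoprecipitation and sequencing (MeRIP-seq) to compare cells with and without the m6A writer, whose core is the pair METTL3 and METTL14. Polyadenylated RNA (mRNA) and chromatin-associated RNA freed of ribosomal RNA (caRNA) were each profiled in a Mettl3 line and in a Mettl14 line, each as Control and CKO cells. These are 8 groups of 2 immunoprecipitation libraries, and each library has its own peak list. The 16 input samples were not used here. All cells were C57BL/6 mouse embryonic stem cells, and all were kept in serum with LIF at 1000 U/ml, CHIR99021 (a GSK3 inhibitor) at 3 µM and PD0325901 (a MEK inhibitor) at 1 µM. CKO commonly stands for conditional knockout. The labels do not say how or how far the gene was deleted, nor whether replicates were separate cultures, so the spread between replicates may be technical. No group was treated with activin, Nodal or BMP.

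The mRNA lists held 16537 to 23380 peaks and the caRNA lists 37955 to 45241, and read depth is unknown. A missing peak can go with less m6A, less RNA or less depth, and fewer cells making an RNA cannot be told apart from less of it per cell. The knocked-out genes gave little check of the labels. In caRNA, Mettl3 carried 3 and 2 peaks in the control libraries of its own line and 1 in each knockout library, but also 4 and 4 in the Mettl14 controls and 1 and 2 in the Mettl14 knockouts. In mRNA its sole peak was in a Mettl3 knockout (fold 3.40). Mettl14 carried 1 peak in each caRNA control of its line and 0 in both knockouts, and its mRNA peak numbers there were 1 and 2 for controls against 1 and 0 for knockouts. In the Mettl3 line Mettl14 had peaks in both caRNA knockouts (2 and 1) and in no other library. Peaks on these genes therefore do not separate the genotypes as the labels do. All 5 embryonic stem cell marker genes examined carried peaks, with Sox2, Esrrb and Zfp42 marked in all 16 libraries, Nanog in 13 and Pou5f1 in 12. Of 5 fibroblast marker genes, Col1a2 was marked in 16 libraries, Col1a1 in 13, Acta2 in 8, Thy1 in 5 and S100a4 in 1. A peak is not a measure of expression, and the part of other cells in the results was not tested.

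Nodal and activin bind type II receptors such as ACVR2A and ACVR2B, which activate type I receptors such as ACVR1B, and the signal reaches genes through SMAD2 and SMAD3. BMPs use BMPR2 and BMPR1A and signal through SMAD1, SMAD5 and SMAD9, with the Id genes among their best known targets. In mouse embryonic stem cells BMP with LIF supports self-renewal, and LEFTY1, LEFTY2 and SMAD7 act as feedback inhibitors that the pathway itself switches on.

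Peaks of the 16 lists that overlapped on the same strand were joined into sites. The 10 genes held 56 of the 70182 sites in gene bodies. Sites are numbered within a gene, plus strand first, from low to high coordinate, and positions are mm10. Of the 56 sites, 10 (17.9%) held a peak in every library, against 9.23% of all sites in gene bodies. Another 12 (21.4%) rested on 1 library, against 20.3% of all. In total 30 sites (53.6%) were found in caRNA alone, 4 (7.14%) in mRNA alone and 22 (39.3%) in both, close to the 55.0%, 7.02% and 38.0% of all sites. The number of member genes with a peak was 8 or 9 in each mRNA library and 9 or 10 in each caRNA library. The member genes held 15 to 23 peaks in each mRNA list and 28 to 38 in each caRNA list.

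**Figure D1:**
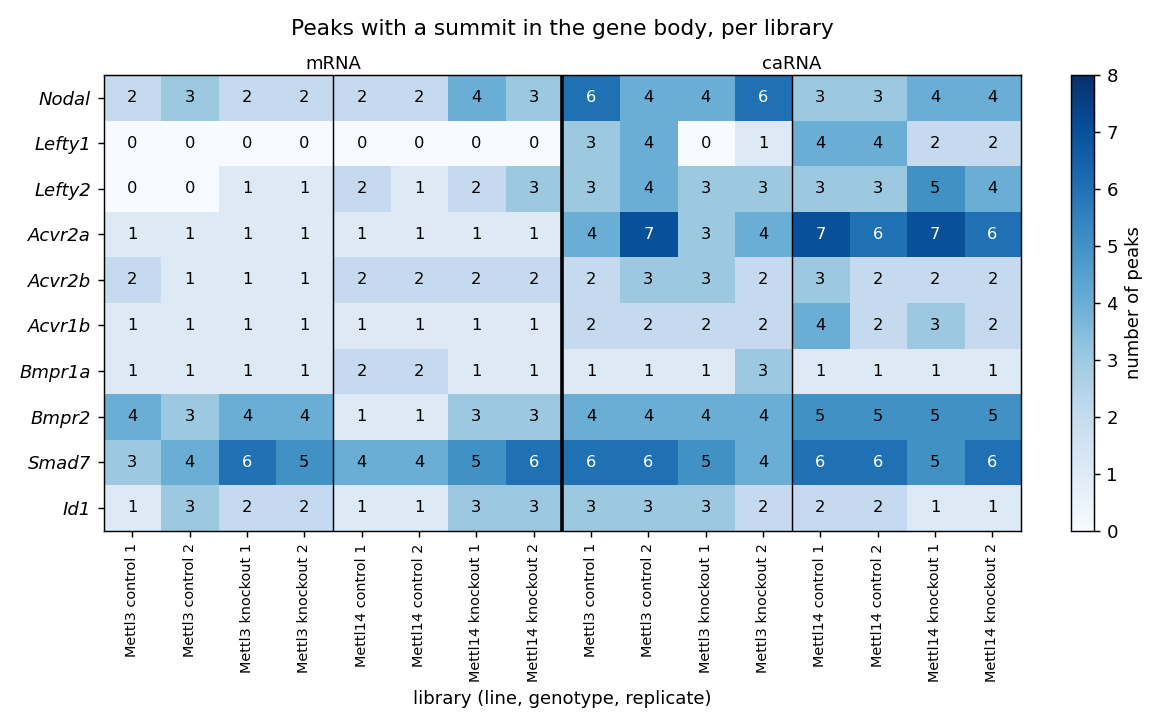
Number of m6A peaks with a summit in the body of each of the 10 genes (rows), in each of the 16 immunoprecipitation libraries (columns, mRNA left, caRNA right). Lefty1 had 0 peaks in all 8 mRNA libraries, and Acvr2a had 1 in each mRNA library and 3 to 7 in caRNA.

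Where peaks lay along the gene could be read for the 6 members whose strand the RefSeq promoter table gives (Acvr2a, Acvr2b, Acvr1b, Nodal, Bmpr1a and Bmpr2). In mRNA, 50% to 66.7% of their sense-strand peaks had a summit in the last 10% of the gene body, depending on the library. In caRNA the share was 26.3% to 35.7%. The ranges of the RNA types did not overlap. Over all genes with a strand the share was 28.1% to 39.0% in mRNA and 16.7% to 23.4% in caRNA, so this share was higher in the 6 genes than in genes at large in both RNA types, a difference that was not tested. The median summit position did not follow in caRNA, where it was 53.0% to 78.4% of the gene body in the 6 genes and 52.3% to 61.5% over all genes, and in 4 of the 8 caRNA libraries it was lower in the 6 genes. In mRNA it was 90.6% to 93.3% against 69.5% to 83.0%. Peaks on the strand opposite to the gene made up 14 of 244 (5.74%) in these genes and 12.4% over all genes with a strand. This share does not stand for all 10 members, since those without a given strand had peaks on both strands. Their plus and minus peaks were 9 and 11 in Lefty1, 35 and 3 in Lefty2, 60 and 21 in Smad7 and 19 and 14 in Id1. Whether a site lies in an exon, intron or untranslated region is not given by the annotation used here.

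**Figure D2:**
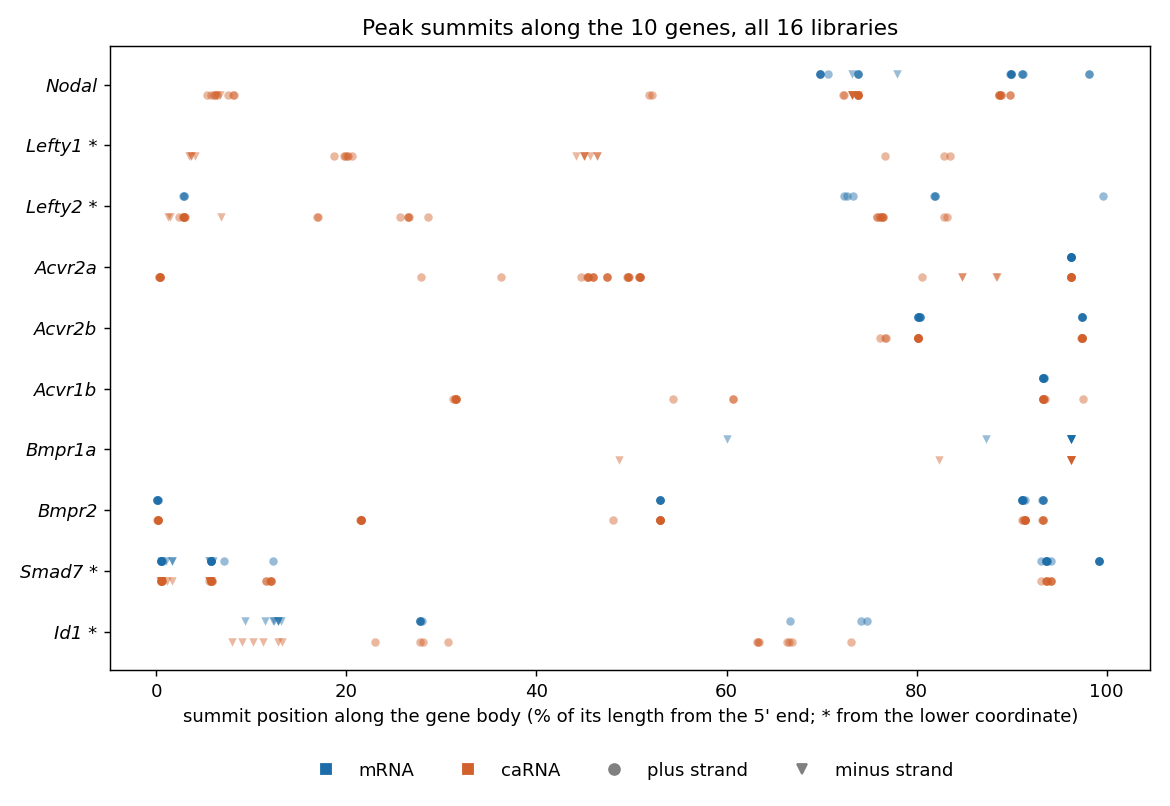
Position of every peak summit along the 10 genes, as percent of the gene body from the 5′ end (from the lower coordinate for the 4 genes marked with an asterisk, whose strand was not given). Each symbol is 1 peak of 1 library, coloured by RNA type and shaped by strand. The mRNA peaks of Acvr2a lie at 1 place near the 3′ end, and its caRNA peaks also lie at the start and in the middle.

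Nodal (chromosome 10, 61417972 to 61425338, plus strand), the ligand, carried 54 peaks. Sites 3 and 4 held a peak in all 16 libraries, with summits at 73.8% and 89.9% of the gene body. The fold enrichment deposited by the authors for each peak, immunoprecipitation over background, was 1.76 to 4.52 (median 2.81) at site 3 in mRNA and 5.09 to 13.3 (median 8.72) in caRNA. At site 4 (61424339 to 61425312) the fold was 3.77 to 5.36 (median 4.48) in mRNA and 8.99 to 22.8 (median 11.6) in caRNA. At both sites every caRNA value lay above every mRNA value. Of the 10 member sites present in all libraries these were the only 2 with that order, while 11.6% of all 6475 sites present in every library had it. How the folds of different lists were scaled is not given, and they are set side by side without a test.

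Nodal site 1 (61418291 to 61418922), whose summit lay 462 bases from the gene start, was found in all 8 caRNA libraries and in none of the 8 mRNA libraries. Its fold in caRNA was 10.1 and 7.15 in the Mettl3 controls, 5.81 and 5.35 in the Mettl3 knockouts, 2.66 and 2.45 in the Mettl14 controls and 4.03 and 4.16 in the Mettl14 knockouts. The knockouts lay below the controls in the Mettl3 line and above them in the Mettl14 line. A minus-strand site, Nodal site 6, overlapped the plus-strand site 3 by 538 bases. In mRNA it was seen in both Mettl14 knockouts alone (6.44 and 5.39), and in caRNA in all 4 Mettl3 libraries and in both Mettl14 knockouts (4.47 and 3.58). Nodal sites 2 and 5 were each seen in 2 caRNA libraries, the first Mettl3 control and the second Mettl3 knockout.

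Lefty2 (chromosome 1, 180893108 to 180899107) and Lefty1 (chromosome 1, 180935022 to 180938401) encode the antagonists that bind Nodal and its co-receptor. They lie 35915 bases apart and are close paralogues, and how reads that map to both were treated is not given in the sources used here. Their counts are uncertain for that reason. Of the 20 peaks in Lefty1, 18 also lay in the overlapping long non-coding RNA gene Gm39715 (180920413 to 180937698), so they cannot be given to Lefty1 alone.

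Lefty1 had no peak in any of the 8 mRNA libraries. The Mettl3 caRNA controls had 3 and 4 peaks and the knockouts of that line 0 and 1. The Mettl14 caRNA controls had 4 each and the knockouts of that line 2 each. All 4 caRNA knockout libraries lay below both controls of their line. Site 3, on the minus strand (180935040 to 180935282), was present in all 4 caRNA controls (4.66, 3.81, 5.99 and 4.64) and in no knockout. Site 1 (4.49 and 4.44) was absent from both Mettl3 knockouts but present in all 4 Mettl14 libraries. Site 2 was present in both Mettl14 controls (3.58 and 3.44) and absent from the Mettl14 knockouts. Site 4, on the minus strand, was present in 7 of 8 caRNA libraries (3.98 to 6.40) and absent from the first Mettl3 knockout.

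Lefty2 had 0 and 0 peaks in the mRNA Mettl3 controls and 1 and 1 in the Mettl3 knockouts. The Mettl14 mRNA libraries had 2 and 1 as controls and 2 and 3 as knockouts, and every caRNA library had 3 to 5. The mRNA peak of the Mettl3 knockouts lay at site 1 (180893111 to 180893603, folds 2.79 and 3.59), near the lower end of the gene. All 8 caRNA libraries had that site, at folds of 4.84 to 10.5 (median 6.23). Site 4 (180897355 to 180898217) was in all 8 caRNA libraries (2.66 to 7.29, median 3.63) and in the 4 Mettl14 mRNA libraries, at control folds of 1.61 and 2.08 and knockout folds of 2.78 and 3.57, but in no Mettl3 mRNA library. Sites 2 and 3 were seen in 2 and 5 caRNA libraries and in no mRNA library. A plus-strand peak also lay just past the gene. In 15 of 16 libraries its summit lay 106 to 124 bases beyond the annotated end (folds 2.53 to 8.30, median 4.44), which left it out of the count, and in the other library it lay inside. With any overlap of peak and gene counted, Lefty2 was marked in the Mettl3 controls too and 0 member genes were gained.

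Acvr2a (chromosome 2, 48814109 to 48903264, plus strand), a type II receptor for activin and Nodal, held the member site with the highest median fold over the 16 libraries (20.1). This was site 9 (48899513 to 48900207), with its summit at 96.2% of the gene body. Its fold in mRNA was 28.1 and 13.3 in the Mettl3 controls, 23.3 and 22.3 in the knockouts, 21.1 and 21.0 in the Mettl14 controls and 34.1 and 27.4 in the Mettl14 knockouts. The caRNA values were 16.2 to 24.8 (median 18.7), and in caRNA alone Bmpr2 site 4 (median 20.7) and Acvr2b site 2 (median 19.2) stood higher. The site was present in every control and every knockout library, and the median rank of its peaks was the 99.7 percentile of fold in their lists. It was the sole Acvr2a peak in each of the 8 mRNA libraries.

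In caRNA Acvr2a had 3 to 7 peaks (median 6). Site 1, whose summit lay 306 bases from the gene start, was found in 7 of 8 caRNA libraries (median 3.87, highest 5.45). Sites 4 to 7 formed a cluster of 5817 bases in the middle of the gene (48853799 to 48859615). There the Mettl3 caRNA controls had 2 and 3 peaks and the knockouts of that line 0 and 1. All 4 Mettl14 caRNA libraries, controls and knockouts, had 4 peaks there. In peak number the Mettl3 knockouts were thus below their controls in the cluster, and the Mettl14 knockouts equal to theirs. The first Mettl14 knockout lacked site 5 and had 2 peaks at site 4. Mettl14 knockout folds were below both controls at site 4 (4.74 and 5.81 against 6.60 and 6.16). The same held at site 6 (3.57 and 4.18 against 4.47 and 6.82) and site 7 (4.81 and 4.18 against 7.77 and 7.73). At site 5 the second knockout had 4.24 against 5.87 and 7.31. These fold differences were not tested. Site 7 (4.65 and 5.00 in the Mettl3 caRNA controls) was absent from both Mettl3 knockouts. Site 10, on the opposite strand, was seen in the second Mettl3 caRNA control (5.83) and the first Mettl3 caRNA knockout (5.72).

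Acvr2b (chromosome 9, 119401583 to 119442148, plus strand), the other type II receptor, had 1 or 2 peaks in each mRNA library and 2 or 3 in each caRNA library. Its site 2 (119433219 to 119434610, summit at 80.2% of the gene body) was present in all 16 libraries. The fold there was 5.58 to 16.7 (median 11.9) in mRNA and 12.9 to 24.7 (median 19.2) in caRNA, and the ranges overlapped. Site 3, at 97.4% of the gene body, was in all 8 caRNA libraries (2.67 to 8.38) and in 5 of 8 mRNA libraries (4.83 to 9.49), and 3 of the 4 Mettl3 mRNA libraries lacked it. Site 1 was in 3 caRNA libraries (2.96 to 3.43).

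Acvr1b (chromosome 15, 101174072 to 101213684, plus strand), the type I receptor that both pair with, had 1 peak in each mRNA library, at site 4 (101210691 to 101211452). The fold of that site was 5.40 to 13.9 in mRNA and 8.25 to 18.1 in caRNA. Its site 1, at 31.5% of the gene body, was found in 7 of 8 caRNA libraries (3.12 to 5.35) and in no mRNA library. Site 3 was in the first caRNA control and the first caRNA knockout of the Mettl14 line (3.36 and 4.32).

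Bmpr1a (chromosome 14, 34411061 to 34503336, minus strand), a type I receptor for BMPs, was marked at 1 main place. Site 1 (34414319 to 34414743, summit at 96.2% of the gene body from the 5′ end) was present in all 16 libraries, with low folds of 2.49 to 4.13 in mRNA and 3.09 to 7.28 in caRNA. The gene had 1 peak in 13 libraries, 2 in both Mettl14 mRNA controls and 3 in 1 Mettl3 caRNA knockout. Each of its other 4 sites was seen in 1 library.

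Bmpr2 (chromosome 1, 59764279 to 59878081, plus strand), the type II receptor for BMPs, had 59 peaks, all on its own strand. Site 5 (59867279 to 59868707) was in all 16 libraries, with folds of 3.60 to 9.31 (median 4.37) in mRNA and a median of 12.0 in caRNA, with 4.77 the lowest. Site 4 (59824467 to 59824848), at 53.0% of the gene body, had folds of 11.4 to 25.1 (median 20.7) in all 8 caRNA libraries and of 5.26 to 11.7 in 5 of 8 mRNA libraries. Site 2 (59788597 to 59788873), 24473 bases from the start, was found in all 8 caRNA libraries (4.23 to 12.5, median 7.84) and in no mRNA library. Site 6 was in 4 of 8 mRNA libraries (2.39 to 4.58), in all 4 Mettl14 caRNA libraries (3.80 to 4.67) and in no Mettl3 caRNA library.

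At the start of Bmpr2, site 1 had its summits 138 to 158 bases into the gene. In mRNA its fold was 8.51 and 7.68 in the Mettl3 controls, 8.43 and 7.75 in the Mettl3 knockouts and 9.28 and 8.80 in the Mettl14 knockouts, and both Mettl14 controls lacked it. In caRNA it was present in 7 of 8 libraries (7.12 to 15.5) and absent from the second Mettl3 knockout. The caRNA peaks also lay before the annotated start. All 8 caRNA libraries had a plus-strand peak over part of the 250 bases upstream. In 5 of them 1 peak covered all 250, starting 809 to 840 bases before the gene. These 5 were every caRNA control and the first Mettl14 caRNA knockout. In the other caRNA knockouts the upstream peak ended before the gene start. This difference between genotypes was not tested. In no mRNA library did a peak overlap these 250 bases. Farther upstream, the second Mettl3 mRNA knockout had a plus-strand peak (59763447 to 59763768, fold 3.35), so upstream peaks were not confined to caRNA. The 250 bases are shown because caRNA peaks lay over them and mRNA peaks did not. The sequence is the RefSeq promoter entry of GRCm38.p6, chr1:59764029-59764278, plus strand, with capitals for the letters GTCC and AGTCC, which read GGAC and GGACT on the other strand.

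Bmpr2 upstream: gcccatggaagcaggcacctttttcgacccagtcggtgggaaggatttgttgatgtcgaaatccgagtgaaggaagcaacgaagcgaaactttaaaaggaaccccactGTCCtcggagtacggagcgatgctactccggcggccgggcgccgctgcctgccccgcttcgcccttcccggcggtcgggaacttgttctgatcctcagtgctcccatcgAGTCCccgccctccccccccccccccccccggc

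GGAC is the core of the motif in which m6A is commonly placed, and GGACT is its most frequent form. Both strands were searched, and every GGACT also counts as a GGAC. The gene strand of these 250 bases holds GGAC 0 times and the other strand 2 times. GGACT stands 0 times on the gene strand and 1 time on the other. Of 32851 mouse promoter windows of the same length, 58.0% hold GGAC and 21.4% GGACT on the gene strand, and 82.3% and 38.9% hold them on either strand. The wide peaks extended beyond this window on both sides, so the absence of these letters concerns the window alone.

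Smad7 (chromosome 18, 75367365 to 75395935), whose protein blocks the receptors of both branches, held 81 peaks, more than any other member. Sites 1, 2 and 4 were present in all 16 libraries. At site 1 (75367370 to 75368479), at the lower end of the gene, the fold was 3.93 to 14.0 (median 7.53) in mRNA and 6.98 to 14.5 (median 10.6) in caRNA. Site 2 had folds of 4.32 to 9.87 in mRNA and 7.48 to 16.5 in caRNA. The ranges overlapped at both. Site 4, at 93.7% of the body from the lower end, had folds of 1.62 to 5.89 in mRNA and 5.50 to 10.6 in caRNA.

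In mRNA, Smad7 had 3 and 4 peaks in Mettl3 control libraries against 6 and 5 in Mettl3 knockout libraries, and 4 each in Mettl14 control libraries against 5 and 6 in Mettl14 knockout libraries. In caRNA it had 6 in each of the 4 control libraries, 5 and 4 in Mettl3 knockout libraries and 5 and 6 in Mettl14 knockout libraries. The mRNA knockouts lay above the controls in both lines, and the caRNA knockouts lay at or below them. Most of the extra mRNA peaks were on the minus strand, at sites 6 and 7. Site 6 overlapped site 1 by 591 bases. It was present in all 4 mRNA knockouts (4.74, 4.06, 5.13 and 6.51), in none of the 4 mRNA controls and in all 8 caRNA libraries. Site 7 overlapped site 2 by 369 bases and was present in 3 of 4 mRNA knockouts and in no mRNA control. In caRNA it was absent from both Mettl3 knockouts and present in the other 6 libraries. On the plus strand, site 3 was seen in 1 mRNA library, the second Mettl14 knockout (3.59), and in 6 of 8 caRNA libraries (2.05 to 3.43). Site 5 was seen in mRNA alone, in both Mettl3 knockouts (4.44 and 4.19), the second Mettl3 control (3.61) and both Mettl14 controls.

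Minus- and plus-strand sites that overlap were also seen in Id1 (228 bases) and at Nodal site 1 (205 bases). As a measure of signal on both strands, the second of the spike-in RNAs had peaks on both strands in all 16 libraries, with folds of 1.39 to 3.51 on plus and 4.48 to 16.5 on minus. The first spike-in RNA had plus-strand peaks in 6 libraries (1.25 to 1.78) and minus-strand peaks in 4 (2.87 to 6.04). The part of the library protocol in the minus-strand peaks was not tested.

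Id1 (chromosome 2, 152736251 to 152737410), which encodes an inhibitor of differentiation that lacks a DNA-binding domain, is the shortest of the 10 genes at 1160 bases. Site 2, on the minus strand (152736297 to 152736611), was present in all 8 mRNA libraries. The fold was 8.52 and 3.98 in the Mettl3 controls, 11.8 and 5.82 in the Mettl3 knockouts, 3.52 and 5.12 in the Mettl14 controls and 2.72 and 1.79 in the Mettl14 knockouts. The Mettl14 knockouts were below their controls, and the Mettl3 groups overlapped. In caRNA the site was present in 6 libraries (5.12 to 7.05) and absent from both Mettl14 knockouts. On the plus strand, site 1 was present in 5 of 8 mRNA libraries at folds of 1.44 to 2.08 and in all 8 caRNA libraries at 4.79 to 8.94.

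**Figure D3:**
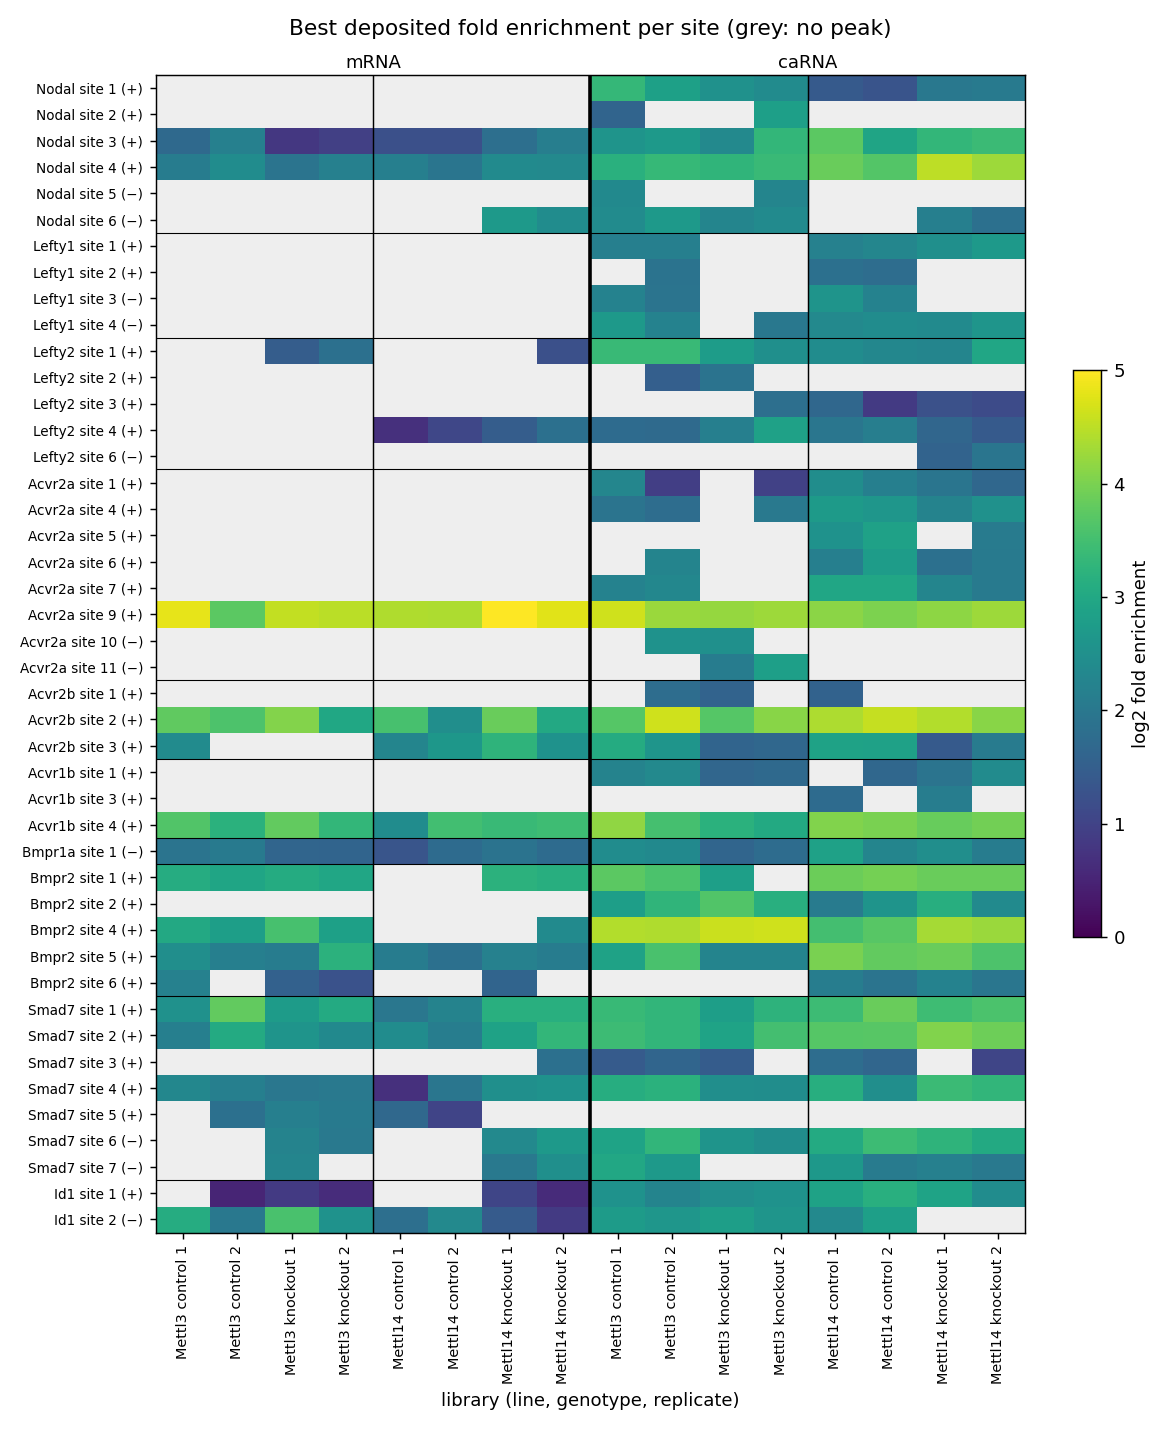
Deposited fold enrichment (log2 colour scale) of the best peak at each member site found in at least 2 libraries (rows, with the strand of the peak) in each library (columns). Grey marks no peak. Nodal site 1 and Bmpr2 site 2 are coloured in all 8 caRNA libraries and grey in all 8 mRNA libraries, and Lefty1 is grey throughout mRNA.

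The first comparison asked which members carried more peaks in caRNA than in mRNA. Of the 10 genes, 5 had more peaks in caRNA and none had fewer, by an exact two-sided permutation test within line and genotype (8 libraries against 8, adjusted over 16005 genes, threshold 0.05). Over all genes tested, 33% were called higher in caRNA and 2.32% lower. The median difference was 1.5 peaks over the 10 genes and 0.625 over all genes. Acvr2a had 5.5 ± 1.60 peaks in caRNA and 1 ± 0 in mRNA (mean ± SD, n = 8, exact permutation adjusted p = 0.00924). For Acvr1b the numbers were 2.38 ± 0.744 and 1 ± 0 (n = 8, exact permutation adjusted p = 0.00924), and for Lefty2 3.5 ± 0.756 and 1.25 ± 1.04 (n = 8, exact permutation adjusted p = 0.00924). These 3 genes had the smallest p that the permutations allow, 0.00154 before adjustment.

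Nodal had 4.25 ± 1.16 peaks in caRNA and 2.5 ± 0.756 in mRNA, and Lefty1 2.5 ± 1.51 and 0 ± 0 (n = 8, exact permutation adjusted p = 0.0179 for each). Nodal, Lefty1, Lefty2, Acvr2a and Acvr1b therefore passed the test, while Acvr2b, Bmpr1a, Bmpr2, Smad7 and Id1 did not. A difference between these groups of genes was not tested. Of the 20 peaks in Lefty1, 18 also lay in Gm39715. Bmpr2 had 4.5 ± 0.535 and 2.88 ± 1.25 peaks (n = 8, exact permutation adjusted p = 0.0655) and Acvr2b 2.38 ± 0.518 and 1.62 ± 0.518 (n = 8, exact permutation adjusted p = 0.108). Smad7 had 5.5 ± 0.756 and 4.62 ± 1.06 (n = 8, exact permutation adjusted p = 0.257). Bmpr1a had a mean of 1.25 peaks in both RNA types and Id1 of 2.12 and 2 (exact permutation adjusted p = 1 for each).

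Of 44 member sites found in at least 2 libraries, 2 were called as present more often in caRNA, and none in mRNA. They were Nodal site 1 and Bmpr2 site 2, each in 8 of 8 caRNA and 0 of 8 mRNA libraries (exact permutation adjusted p = 0.0357 over 55917 sites). Over all sites 4.18% were called higher in caRNA and 0.152% lower. Without the first Mettl3 caRNA knockout library 5 member sites were called (2546 of 51907 sites in either direction). Among the 44, 3 lacked a peak in that library alone among the caRNA lists. Every caRNA list was longer than every mRNA list. With every list limited to its 10000 strongest peaks, 0 member genes and 0 member sites were called, and Acvr2a and Acvr1b had the same mean number of peaks in both RNA types. Over all genes 964 of 10191 were still called in that setting, and over all sites 0 of 19028. Counted in bases under peaks in place of peaks, 9 of the 10 genes, all but Bmpr1a, were called higher in caRNA, and 9036 of 16005 genes were called in either direction. With the labels permuted within replicate numbers, 3 member genes were called, against 2894 of 16005 genes, and 0 member sites, against 0 of 55917 sites. Nodal and Lefty1 then had an adjusted p of 0.0578 (exact permutation).

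The second comparison asked which members gained or lost peaks in the knockouts. None of the 10 genes and none of the 44 sites was called (exact two-sided permutation test within RNA type and line, 8 against 8, adjusted over all genes or sites). Over all genes and over all sites 0% were called in either direction. An unadjusted p under 0.05 (exact permutation) was found for 942 of 16005 genes (5.89%) and for 270 of 55917 sites (0.483%). None of the 10 members and none of the 44 member sites had one. With so few members, such shares cannot tell them apart from all genes or sites. A call would have needed 494 genes at the smallest possible p, and 30 were there. The absence of a call is therefore no sign of equal peak numbers. The median difference, knockout minus control, was 0.0625 peaks over the 10 genes and 0.125 over all genes.

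Lefty1 had a mean of 0.625 peaks in the knockouts and 1.88 in the controls (exact permutation p = 0.0556, adjusted 0.602), with all 4 caRNA knockout libraries below their controls. Since its mRNA counts are all 0, no smaller p was possible. Among genes marked in caRNA, 2.92% were lower in the knockouts without overlap in both lines, and Lefty1 was the sole member of that kind. Smad7 was the sole member higher without overlap in mRNA of both lines, which 2.57% of genes were. Lefty2 had 2.75 peaks in the knockouts and 2 in the controls (exact permutation p = 0.0833, adjusted 0.683), and Bmpr2 had 4 and 3.38 (exact permutation p = 0.167, adjusted 0.729). With the 10000 strongest peaks of each list both of these differences turned to -0.125 peaks. Over all libraries Smad7 had 5.25 peaks in the knockouts and 4.88 in the controls (exact permutation p = 0.616). The other 6 genes differed by 0.5 peaks or less (exact permutation adjusted p of 0.879 to 1).

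Within single comparisons of 2 knockout with 2 control libraries, no test can pass 0.05, and the smallest p is 0.333. Peak numbers without overlap are given beside the share of all genes. For mRNA of the Mettl3 line, Lefty2 and Smad7 were higher in the knockouts (12.3% of genes) and no member was lower (9.34%). For mRNA of the Mettl14 line, Nodal, Smad7, Bmpr2 and Id1 were higher (27.9%) and Bmpr1a was lower (5.33%). For caRNA of the Mettl3 line, no member was higher (19.5%), and Lefty1 and Smad7 were lower (14.2%). For caRNA of the Mettl14 line, Nodal and Lefty2 were higher (10.7%), and Lefty1 and Id1 were lower (16.7%).

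Most member sites stayed. A site was called lost with a peak in both controls and neither knockout, gained in the reverse case and retained with a peak in all 4 libraries. Over the 4 comparisons, 75 of 90 site calls possible were retained (83.3%, against 78.6% of all sites), 8 of 90 were lost (8.89%, against 12.4%) and 10 of 89 were gained (11.2%, against 14.5%). A site present in several comparisons counts in each. Among peaks on the strand of the 6 genes with a known strand, 1 of 51 site calls possible was lost (11% of all sense-strand sites), 1 of 49 was gained (13.9%) and 46 of 51 were retained (80.5%).

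In mRNA of the Mettl3 line, 0 of 13 member sites were lost (8.91% of all sites), 13 of 13 were retained (82.3%) and 2 of 18 were gained (10.2%). The gained sites were Lefty2 site 1 and Smad7 site 6. In mRNA of the Mettl14 line 1 of 14 was lost (6.73%), 13 of 14 were retained (90.9%) and 5 of 18 were gained (24%). The lost one was Smad7 site 5, with control folds of 3.24 and 2.03. The gained ones were Nodal site 6, Smad7 sites 6 and 7, Bmpr2 site 1 and Id1 site 1. Smad7 site 6 was thus gained in mRNA of both lines. The Mettl14 mRNA control lists were the 2 shortest of the 16. In the setting above, every list was limited to the same number of its strongest peaks. Over all comparisons together, 0 of 40 member site calls possible were then gained, against 15.3% of all sites. The part of list length in the gains of this line was not tested beyond that setting.

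In caRNA of the Mettl3 line 4 of 30 member sites were lost (14.6%), 21 of 30 were retained (75.9%) and 1 of 22 was gained (16.4%). The lost sites were Acvr2a site 7, Lefty1 sites 1 and 3 and Smad7 site 7, and the gained one was Acvr2a site 11, on the strand opposite to the gene (4.29 and 7.09). In caRNA of the Mettl14 line 3 of 33 were lost (14.5%), 28 of 33 were retained (74.1%) and 2 of 31 were gained (9.08%). The lost sites were Lefty1 sites 2 and 3 and Id1 site 2. The gained sites were Nodal site 6 and Lefty2 site 6. At Lefty2 site 6 both Mettl14 caRNA controls had a peak on the same strand with a summit 37 and 38 bases outside the gene, so this gain rests on where the gene ends. Lefty1 site 3 was thus lost in caRNA of both lines.

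Of whole genes, 0 of 37 gene calls possible were lost and 36 of 37 were retained. Retained genes made up 90.5% and 96.7% of all genes in mRNA of the Mettl3 and Mettl14 lines and 88.3% and 87.9% in caRNA. Lost genes made up 4.27% and 1.84% of all genes in mRNA of the Mettl3 and Mettl14 lines and 6.13% and 5.72% in caRNA. The single gain was Lefty2 in mRNA of the Mettl3 line, where 5.08% of all genes were gained. Lefty1 in caRNA of the Mettl3 line was neither lost nor retained, since 1 knockout library had 0 peaks and the other 1. Without the latter library it was called lost, and with the 10000 strongest peaks of each list 3 of 29 gene calls possible were losses (10.6% of all genes) and 0 of 26 were gains (8.75%).

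**Figure D4:**
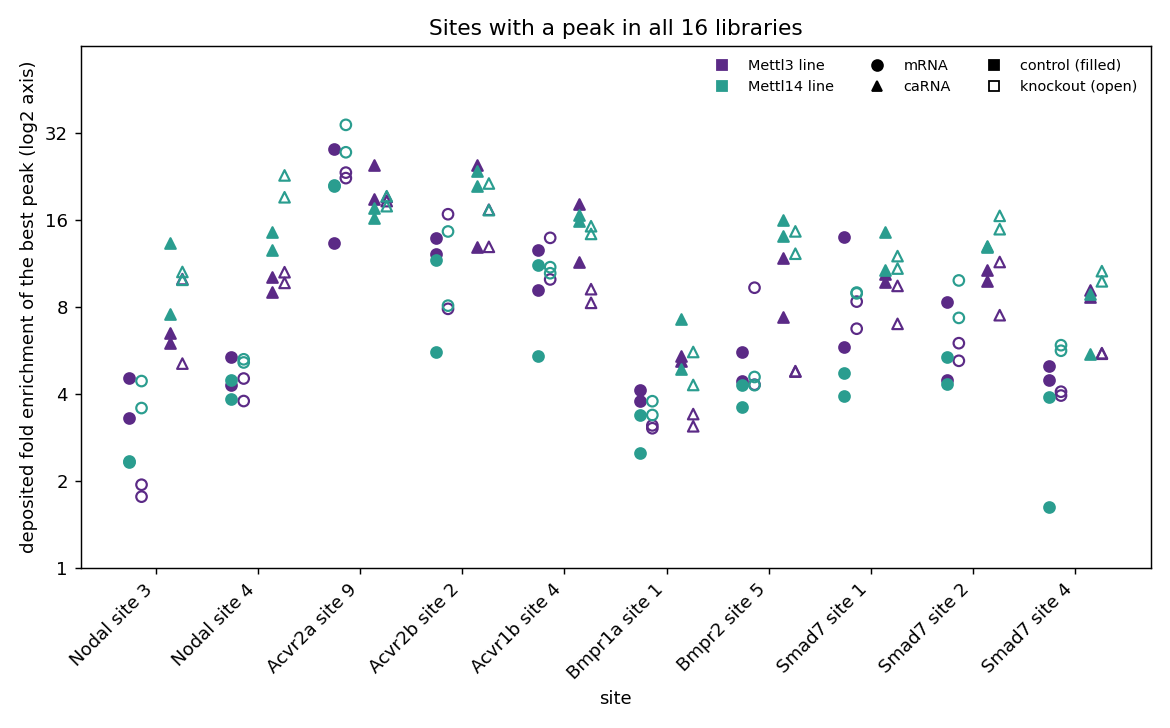
Deposited fold enrichment (log2 axis) of the best peak at the 10 member sites present in all 16 libraries, 1 symbol per library. Colour gives the line, shape the RNA type and filling the genotype. Acvr2a site 9 ranges from 13.3 to 34.1, and at Nodal sites 3 and 4 every caRNA symbol lies above every mRNA symbol.

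At the 10 sites present everywhere, the folds of knockouts and controls did not overlap in a number of cases, and the background was high. The Mettl14 mRNA knockouts were above the controls at 7 sites (75.3% of 6475 sites) and below at 0 (2.39%). The Mettl3 caRNA knockouts were below the controls at 5 sites (70.7%) and above at 0 (6.01%). The Mettl3 mRNA knockouts were below at 3 (34.8%) and above at 0 (15.4%). The Mettl14 caRNA knockouts were above at 4 (22%) and below at 1 (30.6%). In mRNA of the Mettl14 line and caRNA of the Mettl3 line most sites of all genes thus lay on the same side, and the part of list scaling was not tested.

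The effect of the knockouts was also compared between RNA types and between lines. No member was called in either comparison, nor was any of the 16005 genes (0%). Between RNA types 4.47% of all genes had an unadjusted p under 0.05 (exact permutation), and Smad7 was the sole member with one. For Smad7, knockout minus control was 1.75 peaks in mRNA and -1 in caRNA, a difference of -2.75 (exact permutation p = 0.00463, adjusted 0.754). For Lefty1 the values were 0 in mRNA and -2.5 in caRNA (exact permutation p = 0.0556, adjusted 0.754). For Id1 they were 1 in mRNA and -0.75 in caRNA (exact permutation p = 0.0648, adjusted 0.826). Between the lines themselves no member was called, and neither was any other gene (0%). Lefty2 had 2.88 peaks in the Mettl14 line and 1.88 in the Mettl3 line (exact permutation p = 0.0370, adjusted 0.194), and no other member had an unadjusted p under 0.05. Over all genes 3288 of 16005 (20.5%) had one between the lines. In bases under peaks, Lefty2 and Acvr2a were called higher in the Mettl14 line (exact permutation adjusted p = 0.0173 and 0.0446), and 3323 of 16005 genes were called in either direction.

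The rest of the pathway was examined in a list of 48 other ligand, receptor, Smad, inhibitor and target genes, all of which were found in the annotation. In mRNA of the Mettl3 line 1 of 41 genes marked in both controls was lost (4.27% of all genes) and 1 of 43 gained (5.08%). The lost gene was Bmp7, a BMP ligand, with control folds of 5.38 and 4.66, and the gained one was Smad9, a BMP signal transducer (5.67 and 5.24). In mRNA of the Mettl14 line 0 of 35 were lost (1.84% of all genes) and 4 of 41 gained (13.7%). They were Bmp7 (2.02 and 4.83), the BMP ligand Bmp2 (6.16 and 4.62), the Nodal co-receptor Tdgf1 (1.88 in the first knockout library) and the homeobox target Msx1 (4.80 and 4.49). Bmp7 was thus lost in mRNA of one line and gained in that of the other.

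In caRNA of the Mettl3 line 0 of 30 of these genes were lost (6.13% of all genes) and 2 of 32 gained (4.99%). The gained ones were the ligand Tgfb3 (4.03 and 5.97) and the co-receptor Tgfbr3 (7.68 and 6.93). In caRNA of the Mettl14 line 0 of 35 were lost (5.72%) and 2 of 38 gained (3.27%). Gained there were the receptor Tgfbr2 (3.93 and 5.79) and the BMP target Id2 (2.85 and 6.13). By the test over all libraries none of the 45 genes tested was called between knockouts and controls. Of the 45, 1 had an unadjusted p under 0.05 (exact permutation), against 5.89% of all genes.

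Between the RNA types 7 of these 45 genes had more peaks in caRNA (33% of all genes) and 7 had fewer (2.32%), with a median difference of 0.25 peaks. Those higher in caRNA were Bmp7, Pcsk6 (a proprotein convertase that cleaves Nodal), Tgfbr1, Eng, Smad1, Zfyve9 and Ski. Pcsk6 had a mean of 9.75 peaks in caRNA and 2.62 in mRNA, and Tgfbr1 4.12 and 1.75. Those lower in caRNA were Bmp2, Inhba (an activin subunit), Tgfb3, Tgfbr2, Nog (a BMP antagonist), Id4 and Msx1. Inhba had 2.62 peaks in caRNA and 4.75 in mRNA, and Tgfb3 1 and 3.88. Of the 10 members 5 were higher and 0 were lower, and the difference between the lists was not tested.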

How the data were processed

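Each of the 16 immunoprecipitation libraries came with 1 strand-specific peak list, called per library without pooling, as the deposited files show. The submitters' processing notes name mm10, CASAVA, Trimmomatic 0.38, HISAT2 2.1.0 and SAMtools 1.9. For the peak caller, its settings and its scaling, nothing is given in the sources used here. Fold enrichment, as deposited, is a ratio of immunoprecipitation over background. The files hold −log10 p and −log10 q values as deposited, and the deposited score was not used for any result. The deposited summit offset gives the base of highest signal, counted from the peak start.

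Spike-in peaks were counted apart. A peak belonged to each RefSeq gene (GRCm38.p6) holding its summit. Peaks with such a summit were merged over the 16 lists by strand at an overlap of 1 bp. Peak numbers per gene and peak presence per site were compared with exact two-sided permutation tests within strata, with Benjamini-Hochberg adjustment over all genes or sites with a peak in at least 2 libraries. The scripts, in Python 3.11.15 with NumPy 2.4.6 and pandas 2.3.3, were tested on simulated data. Since depth is unknown, values have no counting interval. Every member gene is named, and its sites are described where found in at least 2 libraries, the Acvr2a sites 4 to 6 as a cluster. The members, lists and tests were chosen with earlier results of these data known. Input samples were not used here.

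Alternatives were 10000 strongest peaks per list, −log10 q of at least 5, other merging and assignment rules, sense peaks alone, covered bases, a replicate block and leaving out each library. Within an RNA type and line, replicate numbers did not pair libraries (correlations of deviations from -0.0641 to 0.0252). Pairing across RNA types, which the replicate block uses when RNA types are compared, was not tested.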

Additional observations from a re-analysis of the deposited data

Results flagged for a closer look

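Smad7 in the Mettl3 line differed in opposite directions in the RNA types. The caRNA knockouts had fewer peaks than both controls, a difference in means of -1.5, while the mRNA knockouts had more than both controls. Of all genes marked, 14.2% were lower without overlap in caRNA of this line and 12.3% were higher in mRNA. How many were both was not counted. The difference within this line was not tested.

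Id1 in the Mettl14 line did the same. The caRNA knockouts had 1 peak each and the controls 2, a difference of -1, while the mRNA knockouts had 3 each and the controls 1. Apart from site 2, the mRNA knockout peaks lay at site 1. Their folds there were 1.28 to 2.08, at the 0.047 to 4.09 percentile of their lists. The caRNA knockout peaks at site 1 were 799 and 950 bases wide. Of all genes marked, 16.7% were lower without overlap in caRNA of this line and 27.9% higher in mRNA. How many were both was not counted. The difference within this line was not tested.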

How the results depend on the processing

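No called difference changed sign under the alternatives run, but 14 uncalled ones did. With the 10000 strongest peaks per list the knockout difference turned to -0.5 for Nodal, -0.125 for Lefty2, Smad7 and Bmpr2 and -0.25 for Id1, the RNA type difference to -0.25 for Acvr2b and -0.75 for Id1, and the line difference to -0.125 for Lefty2. In covered bases Bmpr2 turned to -323 for the knockouts and 154 for the lines, and Id1 to 47.6 for the lines. Without the first mRNA Mettl3 control, Id1 turned to -0.125 for knockouts and for RNA types (range over left-out libraries -0.125 to 0.375 for each), and without the first caRNA Mettl14 control Acvr1b turned to 0.125 for the knockouts (range -0.375 to 0.125).

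With the 10000 strongest peaks per list, 3 of 29 gene calls possible were lost (10.6% of all genes) and 0 of 26 gained (8.75%). Of site calls possible, 6 of 45 were lost (16.4% of all sites), 0 of 40 gained (15.3%) and 38 of 45 retained (73.5%). Between RNA types 0 member genes and 0 member sites were called, against 964 of 10191 genes and 0 of 19028 sites. Sense peaks alone leave out the 4 members without a known strand. With them 1 of 51 site calls possible was lost (11% of all sites), 1 of 49 gained (13.9%) and 46 of 51 retained (80.5%). Of gene calls possible, 0 of 24 were gained (6.19% of all genes), and 3 members were called between RNA types (4069 of 10761 genes). With any overlap of peak and gene 0 genes were gained. With covered bases in place of peak numbers, 9 members were called between RNA types (9036 of 16005 genes), all but Bmpr1a, and 2 between lines (3323 genes), Acvr2a (adjusted p = 0.0446, exact permutation) and Lefty2 (adjusted p = 0.0173, exact permutation). With the replicate block, 3 member genes (2894 of 16005 genes) and 0 member sites (0 of 55917 sites) were called between RNA types. The pairing changed no other count of member calls.

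Leaving out each library gave 8 to 12 lost, 10 to 14 gained and 75 to 78 retained sites, and 0 to 1 lost, 1 to 1 gained and 36 to 37 retained genes. Between RNA types 5 to 6 genes and 2 to 5 sites were called. The gene lost was Lefty1, without the second caRNA Mettl3 knockout library, and the 5 sites came without the first. The gene called in addition was Bmpr2 without the first mRNA Mettl3 control (exact permutation adjusted p = 0.0299), or Acvr2b without the second caRNA Mettl14 control (exact permutation adjusted p = 0.0497). Read depth is unknown, so a missing peak sets no upper limit on m6A.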
